A study of Mus musculus with 10 samples.

Results

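The 8 genes described here encode the Regnase, roquin and tristetraprolin (TTP) proteins, which bind messenger RNAs and shorten their lives. They were found by gene symbol among the 52550 genes of the deposited count table, and all 8 were measured, a gene with a sum under 10 counts being taken as not measured. They are the Regnases Zc3h12a, Zc3h12c and Zc3h12d, the TTP family genes Zfp36, Zfp36l1 and Zfp36l2, and the roquins Rc3h1 and Rc3h2.

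RNA sequencing was performed on mouse bone marrow cells of C57BL/6 background, enriched for hematopoietic stem and progenitor cells (HSPCs) and transformed with the MLL-AF9 fusion oncogene. MLL-AF9-i139 cells also carried the tetR-KRAB repressor and pCW-miR-139, from which miR-139 is expressed once doxycycline (DOX) is added, and each clone was grown from a picked colony. MLL-AF9-ieGFP cells carried a DOX-inducible eGFP construct instead, and for them tetR-KRAB and colony picking are not stated separately. The groups were 3 MLL-AF9-i139 clones without DOX, the same 3 clones with DOX at 5 µg/mL, 1 MLL-AF9-ieGFP clone without DOX at 48 h and 72 h, and that clone with DOX at 48 h and 72 h. Clones 1 and 2 received DOX for 48 h and clone 3 for 72 h, so the longer treatment and clone 3 cannot be told apart, and no time was given for the untreated MLL-AF9-i139 cultures.

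Regnase-1, the product of Zc3h12a, is an endoribonuclease that cuts stem-loops in the 3′ untranslated regions (UTRs) of inflammatory mRNAs while they are translated. The roquins bind related stem-loops, and TTP and its relatives bind AU-rich elements, and both groups recruit the CCR4-NOT complex, which removes the poly(A) tail. In myeloid cells these factors restrain cytokine mRNAs, and several of them are themselves encoded by short-lived mRNAs that lie under the same control.

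Between 35133308 and 47089725 reads were assigned to genes in a library. Transcripts of the MLL-AF9 program (Hoxa9, Hoxa10 and Meis1) were abundant in all 10 libraries, with a summed level of 251 to 372 CPM. CPM are counts scaled to a common library size, with TMM factors for single genes and by total counts alone for sums over markers. The B cell, T cell and stromal markers together stayed near 0, with the highest summed level of a class at 1.37 CPM. The row of Mir139 held 0 counts in all libraries and its locus lies whole within another gene, so it could not check the induction. Genes of this kind were rarely counted: 812 of 818 protein-coding genes that lie inside another gene without sharing an exon base were at 0, against 24.5% of protein-coding genes that overlap no other. The counts therefore behaved as if each gene were counted over its whole body and overlapping stretches dropped, a setting that is not given in the sources used here.

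To look for full seed matches of the induced microRNA in the members, the mature sequences of miR-139 were taken from RefSeq (GRCm38.p6). Both arms lie on the plus strand, the 5p arm at chr7:101475382-101475403 and the 3p arm at chr7:101475418-101475439. They are shown because the seed, bases 2 to 8 in capitals, was used to search the 3′ UTRs.
mmu-miR-139-5p: uCUACAGUgcacgugucuccag
mmu-miR-139-3p: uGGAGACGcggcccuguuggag
The letters ACTGTAG, complementary to the 5p seed, were searched on the sense strand of the longest annotated 3′ UTR of each member (GENCODE M21, GRCm38). They occurred once, in Rc3h2, in a 3′ UTR of 5331 bases, and 37.4% of 815 3′ UTRs within 20% of that length held a match. The letters CGTCTCC, complementary to the 3p seed, occurred in 0 of the 8. Matches to fewer bases of a seed were not searched, so pairing at such sites was not tested. The Rc3h2 site, with the match in capitals, lies on the minus strand at chr2:37370860-37370882.
Rc3h2 site: gcaattatACTGTAGttgtgata

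The heptamer TATTTAT, the core of the AU-rich elements that TTP proteins recognise, was searched in the same way because several of these genes are known targets of their own family. It occurred 3 times each in Zfp36, Zfp36l1, Zfp36l2 and Rc3h2, 2 times each in Zc3h12c and Rc3h1, and 0 times in Zc3h12a and Zc3h12d. In Zfp36 the 3 matches lay within a 3′ UTR of 774 bases, and 19.6% of 2305 3′ UTRs of like length held at least 1. For Zfp36l1 and Zfp36l2 the share was 37.8% and 37.7%. It was 68.7% for Rc3h2, 60.5% for Zc3h12c and 77.4% for Rc3h1. For Zc3h12a and Zc3h12d, which held no match, it was 20.5% and 44.1%. The match nearest the stop codon is given for the 3 TTP family genes, which are all on the minus strand, at chr7:28376969-28376991, chr12:80108425-80108447 and chr17:84184917-84184939.
Zfp36 site: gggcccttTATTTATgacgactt
Zfp36l1 site: tcaaaacgTATTTATtgccaaac
Zfp36l2 site: atttaactTATTTATtatcttgt
A match describes these letters only and was not read as a bound site.

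Zc3h12a was the member with the largest difference with DOX in MLL-AF9-i139 cells, and its level stayed flat in MLL-AF9-ieGFP cells. The gene lies at chr4:125118423-125127840 on the minus strand and overlaps no other annotated gene. Without DOX it was at 21.5, 20.6 and 19.4 CPM in clones 1, 2 and 3. With DOX it was at 58.8, 49.9 and 29.3 CPM, from 2815, 1964 and 1153 counts. The MLL-AF9-ieGFP clone gave 19.3 and 20.4 CPM without DOX and 19.4 and 19.6 CPM with DOX, at 48 h and 72 h. All 3 treated MLL-AF9-i139 libraries were therefore above all 7 other libraries, and clone 3 was the lowest of the 3.

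In edgeR's quasi-likelihood test over 19223 genes the difference was 2.27-fold (log2 fold change 1.18, SE 0.23, n = 3 clones), with an adjusted p of 0.0955. The same libraries are paired by clone. With the clone as a block Zc3h12a rose by a log2 fold change of 1.13 (SE 0.17, adjusted p = 0.0219), and with DESeq2 the adjusted p was 2.40e-04. The background share of genes called was 0.0624% without the block, 12.4% with it and 8.09% with DESeq2. DESeq2 gave no adjusted p for 6354 of the 19223 genes, which could therefore not be called. Of the 8 members, 0 were called without the block and 1, Zc3h12a, with the block and with DESeq2. Within clones the rise was 2.73-fold in clone 1, 2.42-fold in clone 2 and 1.51-fold in clone 3. Leaving out clone 1 or clone 2 gave log2 fold changes of 0.99 and 1.12 with adjusted p-values of 0.679 and 0.742, and leaving out clone 3 gave 1.39 with an adjusted p of 3.69e-04. Without clones 1, 2 and 3 in turn, 1 of 18014, 0 of 18319 and 3981 of 18359 genes were called.

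In MLL-AF9-ieGFP cells the log2 fold change of Zc3h12a was -0.027 (SE 0.25, adjusted p = 1.00, edgeR fit of 4 groups), and 0% of 20269 genes were called in that comparison (0 by edgeR, with 259 at an unadjusted p under 0.05, and 1 by DESeq2). The difference between the constructs was 1.19 (SE 0.32), with an unadjusted p of 0.00342 and an adjusted p of 0.527. With the replicate block it was 1.14 (SE 0.22, adjusted p = 0.0774). The background for this interaction was 0.00493% of genes called without the block and 0.187% with it, and 0 of the 8 members were called in either fit. Without the MLL-AF9-i139 clone 3 libraries the interaction was 1.43 with an adjusted p of 4.46e-04, in a fit that called 2011 of 19753 genes. The difference between constructs was thus not called with all libraries and was called when clone 3 was left out.

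**Figure D1:**
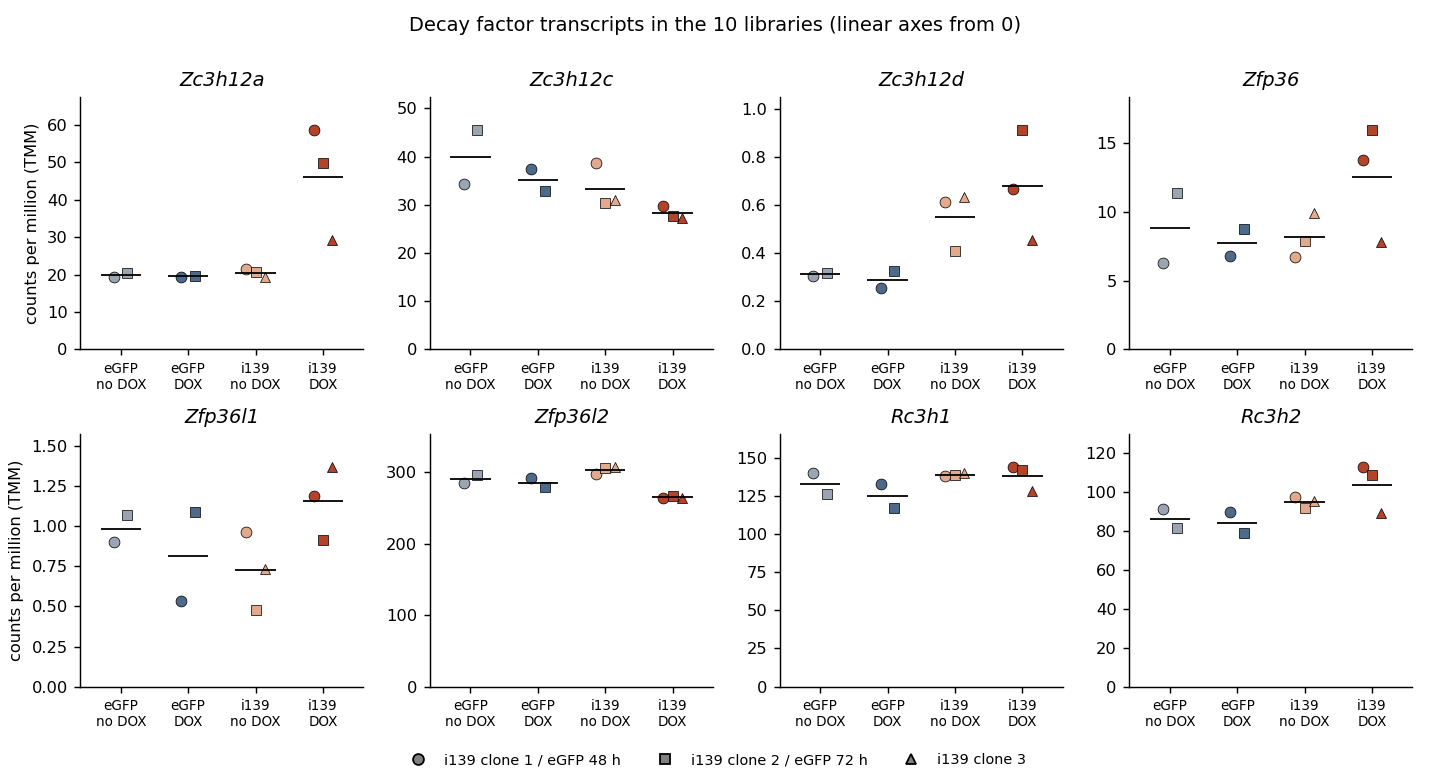
CPM of the 8 members (one panel each, linear axes from 0) in the 10 libraries by group, with each point a library and each bar the group mean. Circles are MLL-AF9-i139 clone 1 or MLL-AF9-ieGFP at 48 h, squares clone 2 or 72 h, triangles clone 3. Zc3h12a lies between 19.3 and 21.5 CPM in 7 libraries and between 29.3 and 58.8 CPM in the 3 treated MLL-AF9-i139 libraries.

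The other Regnases did not follow Zc3h12a. Zc3h12c, which encodes a related RNase also known from macrophages, lies at chr9:52111344-52168572 on the minus strand. It was at 38.6, 30.3 and 30.9 CPM without DOX and at 29.8, 27.6 and 27.3 CPM with DOX, so that the treated libraries were all below the untreated ones. The log2 fold change was -0.22 (SE 0.13, adjusted p = 0.364, and 0.165 with the clone block). Its MLL-AF9-ieGFP libraries were at 34.4 and 45.6 CPM without DOX and at 37.5 and 32.8 CPM with DOX, a wider range than between the MLL-AF9-i139 groups.

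Zc3h12d, a Regnase expressed in lymphocytes, lies at chr10:7832470-7870396 on the plus strand and gave only 10 to 36 counts in a library. Its levels were 0.615, 0.410 and 0.634 CPM without DOX and 0.668, 0.915 and 0.457 CPM with DOX, and the groups overlapped (log2 fold change 0.31, SE 0.35, adjusted p = 0.650). The 4 MLL-AF9-ieGFP libraries held 0.255 to 0.326 CPM, below the 6 MLL-AF9-i139 libraries, a difference between clones that was not tested. The family gene Zc3h12b, which is no member, had 81 to 167 counts and a log2 fold change of -0.37 (SE 0.22, adjusted p = 0.378).

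Per kb of exon, Zc3h12a held 57.0% of the summed level of the 4 Regnase genes without DOX (54.6% to 59.1% over clones) and 76.6% with DOX (69.6% to 81.0%). Zc3h12c held 38.8% and 21.0%. In the MLL-AF9-ieGFP clone the share of Zc3h12a was 52.5% without and 55.1% with DOX. Per kb of gene body the shares of Zc3h12a in MLL-AF9-i139 cells were 78.2% and 89.7%. The log2 ratio of Zc3h12a to Zc3h12c counts, which depends on neither depth nor scaling, moved from -0.84 to 0.98 in clone 1, from -0.56 to 0.85 in clone 2 and from -0.67 to 0.10 in clone 3. In the MLL-AF9-ieGFP libraries it stayed between -1.16 and -0.75. More reads thus came from Zc3h12a than from Zc3h12c in the 3 treated MLL-AF9-i139 libraries and fewer in the 7 others.

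**Figure D2:**
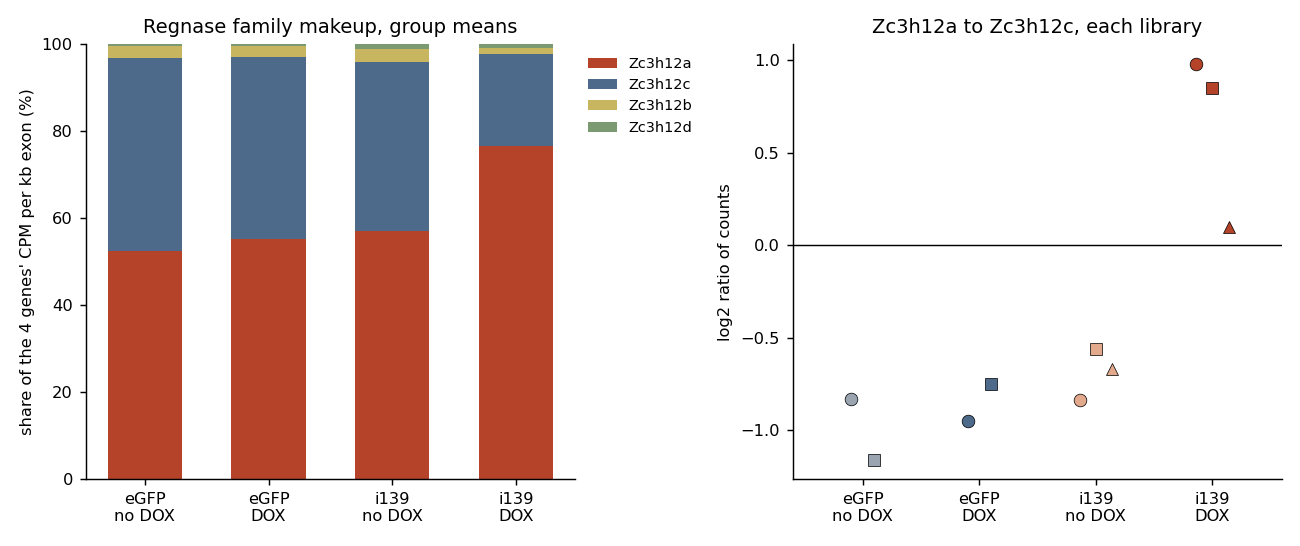
Left, mean share of each Regnase gene in the summed CPM per kb of exon of the 4 genes, stacked to 100%, by group. Right, log2 ratio of Zc3h12a to Zc3h12c counts in each library (circles clone 1 or 48 h, squares clone 2 or 72 h, triangles clone 3), which is above 0 in the 3 treated MLL-AF9-i139 libraries only.

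The member of the TTP family with the most counts was Zfp36l2, a TTP relative needed for blood stem and progenitor cells. It lies at chr17:84183931-84187947 on the minus strand and was at 297 to 307 CPM without DOX and at 264 to 267 CPM with DOX in the MLL-AF9-i139 clones. In each clone it was 1.12-fold, 1.14-fold and 1.17-fold lower with DOX in clones 1, 2 and 3. The treated libraries were all below the untreated ones, and the log2 fold change was -0.18 (SE 0.082, adjusted p = 0.257, and 0.143 with the clone block). The MLL-AF9-ieGFP clone gave 284 and 296 CPM without DOX and 291 and 279 CPM with DOX, values between those of the MLL-AF9-i139 groups. The interaction was -0.17 (SE 0.11, adjusted p = 0.647). The antisense gene AC132455.1, which covers 54.57% of Zfp36l2, had no row among the counts analysed here.

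Zfp36 encodes TTP itself, whose mRNA is induced rapidly by many stimuli. The gene lies at chr7:28376784-28380253 on the minus strand, and 36.71% of its body lies within the antisense gene Gm44710, a stretch in which reads may have been dropped as described above. Without DOX it was at 6.74, 7.91 and 9.89 CPM in clones 1, 2 and 3, and with DOX at 13.8, 16.0 and 7.80 CPM. Clones 1 and 2 were 2.04-fold and 2.02-fold higher with DOX, whereas clone 3 was 1.27-fold lower, and the groups overlapped. The log2 fold change was 0.63 (SE 0.28, adjusted p = 0.251, and 0.190 with the clone block). Without clone 3, Zfp36 rose by a log2 fold change of 1.04 (SE 0.17, n = 2 clones, adjusted p = 0.00540), where 3981 genes were called in all. In MLL-AF9-ieGFP cells it was at 6.29 and 11.4 CPM without DOX and at 6.76 and 8.79 CPM with DOX, and the later culture was the higher of each pair.

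Zfp36l1, the third TTP relative, was barely counted. The gene lies at chr12:80107754-80113013 on the minus strand, and 90.2% of its exon bases lie within the body of the opposite-strand lincRNA gene Gm26669, which itself held 0 counts. Its 21 to 57 counts per library therefore say little of its level. They corresponded to 0.963, 0.479 and 0.735 CPM without DOX and to 1.19, 0.915 and 1.37 CPM with DOX. All 3 clones were higher with DOX, by 1.22-fold, 1.83-fold and 1.81-fold, but the groups overlapped (log2 fold change 0.68, SE 0.32, adjusted p = 0.273, and 0.0980 with the clone block). The family gene Zfp36l3 had 13 counts in all 10 libraries, 9 of them in a single one.

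The roquins did not pass the test in any comparison. Rc3h1 encodes roquin-1, which represses T cell co-stimulator mRNAs and lies at chr1:160906418-160974978 on the plus strand. It was at 138, 139 and 140.1 CPM without DOX and at 144, 142 and 128 CPM with DOX, a log2 fold change of -0.0020 (SE 0.090, adjusted p = 0.992). Rc3h2, which encodes its paralog roquin-2, lies at chr2:37370069-37422903 on the minus strand. It was at 97.4, 92.1 and 95.6 CPM without DOX and at 113, 109 and 89.5 CPM with DOX (log2 fold change 0.14, SE 0.11, adjusted p = 0.504). Clones 1 and 2 were higher with DOX for both genes, and clone 3 was lower for both. In the MLL-AF9-ieGFP clone Rc3h1 ranged from 117 to 139.7 CPM and Rc3h2 from 78.9 to 91.3 CPM, and both were lower at 72 h than at 48 h with and without DOX.

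**Figure D3:**
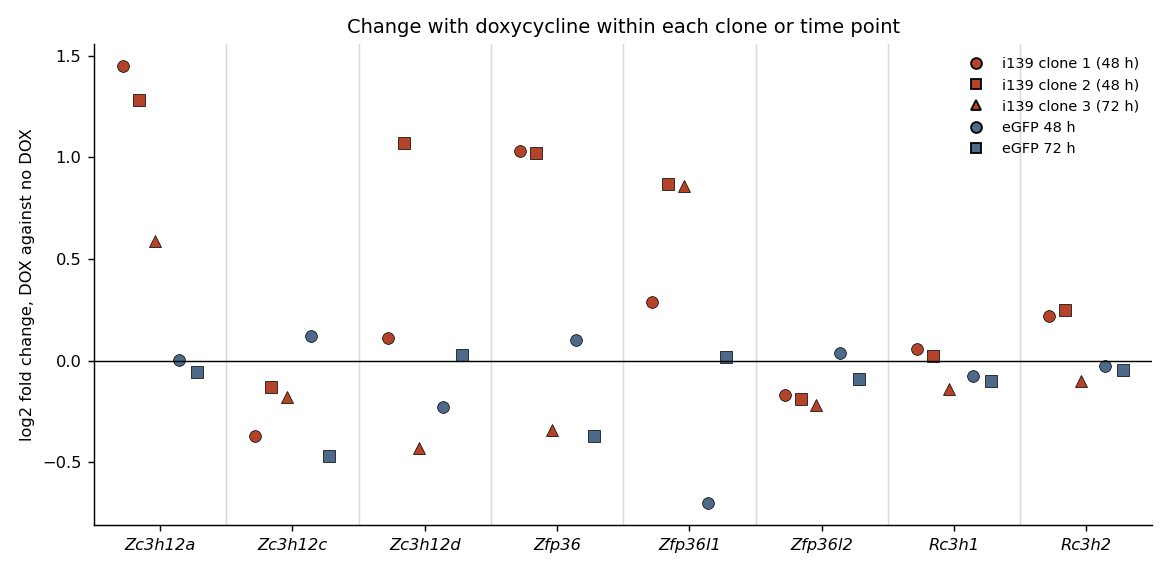
Log2 fold change of CPM (prior count 2) with DOX within each MLL-AF9-i139 clone (red) and at each time in the MLL-AF9-ieGFP clone (blue) for the 8 members. Zc3h12a is above 0 in the 3 clones (1.45, 1.28 and 0.59), and Zfp36 is at 1.03, 1.02 and -0.34.

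Of the 8 members, Zc3h12a had higher and Zc3h12c and Zfp36l2 had lower values in all 3 treated MLL-AF9-i139 libraries than in the 3 untreated ones. Among all genes tested, 12.0% were separated upward in this way and 12.8% downward, so 1 and 2 of 8 lie near the background. The median log2 fold change of the members was 0.23, against 0.013 for all genes tested. No member was called in the MLL-AF9-ieGFP comparison by edgeR or DESeq2.

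The order of the levels depended on the length used. Per kb of exon, Zfp36l2 came first, with a mean over the 10 libraries of 80.8 CPM per kb, and was above Rc3h1 (11.9) in 10 of 10 libraries. Rc3h1 was above Zc3h12a (9.65) in 8 of 10, the exceptions being treated MLL-AF9-i139 libraries. Zc3h12c (4.89) and Rc3h2 (4.78) could not be ordered, with 5 libraries of 10 each way. Zfp36 (2.75) and Zc3h12d (0.120) followed. Zfp36l1 was left out of the order, since most of its length could not be counted, and the value of Zfp36 may be too low for the same reason. Per kb of gene body Zfp36l2 was again first at 71.0. Zc3h12a and Zfp36 came next and could not be ordered, with Zc3h12a higher in 6 of 10 libraries and its group mean higher in MLL-AF9-i139 cells with DOX (4.88 against 3.62) and lower in the 3 other groups (2.07 to 2.18 against 2.24 to 2.55). Between the roquins, Rc3h1 held 69.7% to 72.7% of the summed level per kb of exon in the group means, and 50.6% to 54.2% per kb of gene body.

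Some markers of mature neutrophils and of myeloid progenitors were also higher with DOX. The summed level of 7 such genes (Ltf, Camp, Ngp, Mmp8, Mmp9, Cxcr2 and Ly6g) was 53.3 to 97.5 CPM in the MLL-AF9-i139 libraries without DOX and 123 to 225 CPM with DOX, against 77.3 to 137 CPM in the MLL-AF9-ieGFP libraries. None of the 7 was at 0 in all libraries of a group. The sum was carried mostly by Ngp, a granule protein gene. Ngp was at 79.0, 56.2 and 42.4 CPM without DOX and at 158, 186 and 102 CPM with DOX (adjusted p = 0.0955, and 0.0109 with the clone block). Its MLL-AF9-ieGFP values were 64.5 and 104 CPM without DOX and 79.2 and 123 CPM with DOX, at 48 h and 72 h. Both 72 h values were above the treated clone 3. Cxcr2, a chemokine receptor of neutrophils, was at 41.6, 22.8 and 2.67 CPM with DOX in clones 1, 2 and 3 and at 0.889 to 1.35 CPM without (adjusted p = 0.0955, and 0.0219 with the block). Ltf, Camp, Ly6g and Mmp8 did not pass in either fit, with log2 fold changes of 0.46, 0.45, 0.27 and -0.82, and Mmp9 had too few counts to be tested. The 5 monocyte and macrophage markers (Csf1r, Ccr2, Adgre1, Mrc1 and Cx3cr1) summed to 5.42 to 6.43 CPM without and 4.88 to 17.6 CPM with DOX. With the block Csf1r rose (log2 fold change 1.36 without the block, adjusted p with it 0.0278) and Ccr2 fell (-1.54 and 0.0220), and the other 3 did not pass. The 6 myeloid progenitor markers were Kit, Cd34, Mpo, Elane, Itgam and Fcgr3. They summed to 1795 to 2793 CPM without and 2642 to 4656 CPM with DOX in MLL-AF9-i139 cells. The control construct gave sums of 1835 to 2335 CPM untreated and 2163 to 3068 CPM treated, the highest above the lowest treated MLL-AF9-i139 sum. Mpo counts there were also higher in the treated library of each pair, 27650 against 23888 (48 h) and 34097 against 22130 (72 h). Fcgr3 was not, with 90.6 and 92.2 CPM treated against 94.3 and 95.3 CPM untreated. Itgam, which lies almost whole within other genes, had only 6 counts in the 10 libraries and was not tested. In MLL-AF9-i139 cells Mpo rose with the block (log2 fold change 1.40 without the block, adjusted p with it 0.00955). So did Fcgr3 (1.37 and 0.0332) and Cd34 (4.53 and 0.0304). Cd34 had 0 to 1 counts without and 20, 8 and 3 with DOX in the MLL-AF9-i139 clones. Kit and Elane did not pass. Elane counts were lower with DOX in clone 1 (43699 against 53168) and clone 2 (39848 against 57702). They were higher in clone 3 (105081 against 79050). Of the MLL-AF9 program, Hoxa9 (-0.35 and 0.0428) and Hoxa10 (-0.37 and 0.0409) fell with the block, and Meis1 did not pass. The 3 genes summed to 329 to 372 CPM without and 251 to 310 CPM with DOX in MLL-AF9-i139 cells. In the MLL-AF9-ieGFP libraries they summed to 284 to 296 CPM without and 260.2 to 295 CPM with DOX. Over all genes tested, 12.4% were called with the block. The part of these cell types in the level of Zc3h12a was not tested. In bulk RNA a change in the number of cells of a type cannot be told apart from a change in RNA per cell.

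The genes whose profile over the 10 libraries was most like that of Zc3h12a included Chic2 and Tpcn2, by the root mean square difference of centred log2 CPM among 13168 genes with at least 10 counts in every library. The differences were 0.094 and 0.10, against a median of 0.61 over all genes compared. Tpcn2, an endolysosomal ion channel gene, was at 20.5 to 21.7 CPM without DOX and at 56.3, 50.9 and 25.3 CPM with DOX. Chic2, a gene of a membrane-associated protein, was at 49.1 to 51.2 CPM without DOX and at 123, 126 and 70.4 CPM with DOX. In both genes clone 3 was the lowest of the treated MLL-AF9-i139 libraries, which follows from their choice by likeness to Zc3h12a.

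The shared machinery of mRNA decay was close to level. Of 24 listed genes of the CCR4-NOT and PAN2-PAN3 deadenylases, the decapping complex, the 5′ exonuclease Xrn1 and nonsense-mediated decay, 23 were tested. Cnot9 held 0 counts and lies whole within other genes. By edgeR without the block, with the clone block and with DESeq2, 0 rose and 0 fell, and 2 had an unadjusted p under 0.05 without the block. Over all genes tested, 12.4% were called with the block, 8.09% with DESeq2 and 20.6% at an unadjusted p under 0.05. The log2 fold changes ranged from -0.26 (Cnot10) to 0.26 (Pan2 and Ddx6), with a median of -0.053. Cnot1, the scaffold to which TTP and the roquins bind, had a log2 fold change of -0.088 (SE 0.084, adjusted p = 0.590).

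Of 16 listed regulators and competing RNA-binding proteins, 0 passed the test without the block, with 3 at an unadjusted p under 0.05, and 2 rose both with the clone block and with DESeq2. These counts lie near the shares over all genes of 20.6% at an unadjusted p under 0.05, 12.4% with the block and 8.09% with DESeq2, so they are no result about the list. Khnyn, which encodes an RNase with the same type of catalytic domain as Regnase-1, was at 16.7, 19.5 and 18.3 CPM without DOX and at 33.2, 32.8 and 21.0 CPM with DOX (log2 fold change 0.69, SE 0.19, adjusted p = 0.125, and 0.0418 with the block). Irak1 encodes a kinase of Toll-like receptor signalling, a pathway that triggers Regnase-1 degradation. It was at 98.6, 109 and 104 CPM without DOX and at 140.0, 139 and 126 CPM with DOX (log2 fold change 0.39, SE 0.094, adjusted p = 0.110, and 0.0338 with the block). In the MLL-AF9-ieGFP libraries Khnyn was at 17.6 to 18.7 CPM. Irak1 was at 109 and 115 CPM there without DOX and at 111 and 128 CPM with DOX, the last above the treated clone 3. Malt1, the protease that cleaves Regnase-1 and roquins, had a log2 fold change of -0.081 (SE 0.13, adjusted p = 0.764). Arid5a, which protects mRNAs from Regnase-1, was at 0.48 (SE 0.27, adjusted p = 0.341).

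Transcripts known as targets of these factors went both ways. Of 30 listed, 24 were tested, and 0 passed the test without the block, with 13 at an unadjusted p under 0.05. With the clone block 3 rose (Irf4, Dusp1 and Notch1) and 2 fell (Myc and Cdk6), and with DESeq2 2 rose (Dusp1 and Notch1) and 2 fell (Cdk6 and Tfrc). The median log2 fold change of the 24 was 0.19, against 0.013 for all genes tested. Over all genes, 20.6% had an unadjusted p under 0.05, 12.4% were called with the block and 8.09% with DESeq2. The heptamer TATTTAT was present in the longest 3′ UTR of 24 of the 30, against 27.4% of 20311 genes. These shares were not matched for 3′ UTR length, and the list was made of known targets, so they are no result about these data.

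Dusp1, a phosphatase that switches off MAP kinases and a TTP target, was at 3.44, 2.51 and 4.84 CPM without DOX and at 14.5, 16.0 and 5.59 CPM with DOX (log2 fold change 1.76, SE 0.41, adjusted p = 0.105, and 0.0491 with the block). The receptor gene Notch1 was at 188, 157 and 129 CPM without DOX and at 634, 573 and 190.0 CPM with DOX (log2 fold change 1.58, SE 0.40, adjusted p = 0.114, and 0.0257 with the block). Both were highest in clones 1 and 2 with DOX. The treated clone 3 of Notch1 was below all 4 MLL-AF9-ieGFP libraries, which held 191 to 212 CPM, and for Dusp1 these held 2.35 to 4.82 CPM.

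Myc was at 316, 365 and 364 CPM without DOX and at 215, 228 and 317 CPM with DOX (log2 fold change -0.45, SE 0.15, adjusted p = 0.169, and 0.0359 with the block). Cdk6, a cell cycle kinase gene, was at 1769, 1478 and 1669 CPM without DOX and at 1124, 975 and 1398 CPM with DOX (log2 fold change -0.48, SE 0.15, adjusted p = 0.139, and 0.0289 with the block). In the MLL-AF9-ieGFP libraries Myc lay between 377 and 381 CPM and Cdk6 between 1441 and 1583 CPM.

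Irf4 and Tfrc fell outside the rule for named genes and were picked after their values were seen. Irf4, a transcription factor gene whose mRNA is cut by Regnase-1, had 1 to 4 counts in the libraries without DOX and 28, 15 and 12 with DOX in clones 1, 2 and 3 (adjusted p = 0.0865, and 0.0238 with the block). DESeq2 gave Irf4 no adjusted p. Tfrc, the transferrin receptor gene, was at 589.5, 578 and 372 CPM without DOX and at 335, 304 and 365 CPM with DOX. Its log2 fold change was -0.60 (SE 0.18), with adjusted p-values of 0.132 by edgeR, 0.0621 with the block and 0.0307 with DESeq2. The MLL-AF9-ieGFP libraries held Irf4 at 2 to 3 counts and Tfrc at 429 to 599.6 CPM.

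Among the cytokines, Il6, the classical target of Regnase-1, had 10 counts in the 6 MLL-AF9-i139 libraries. Il12b, Il2, Icos, Cxcl1 and Ccl2 were at 0 in all 10 libraries, and Csf2 had 3 counts in all. A count of 0 allows up to 3 counts, or 0.0637 to 0.0854 CPM by library, for counting error only. Tnf, the classical TTP target, was measured at 6.05 to 7.82 CPM without DOX and at 10.3, 11.4 and 8.05 CPM with DOX (log2 fold change 0.48, SE 0.20, adjusted p = 0.222, and 0.0999 with the block). All 3 treated Tnf values were above the 3 untreated ones, as was the case for 12.0% of all genes, but the untreated MLL-AF9-ieGFP library at 72 h, at 8.79 CPM, was above the treated clone 3.

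**Figure D4:**
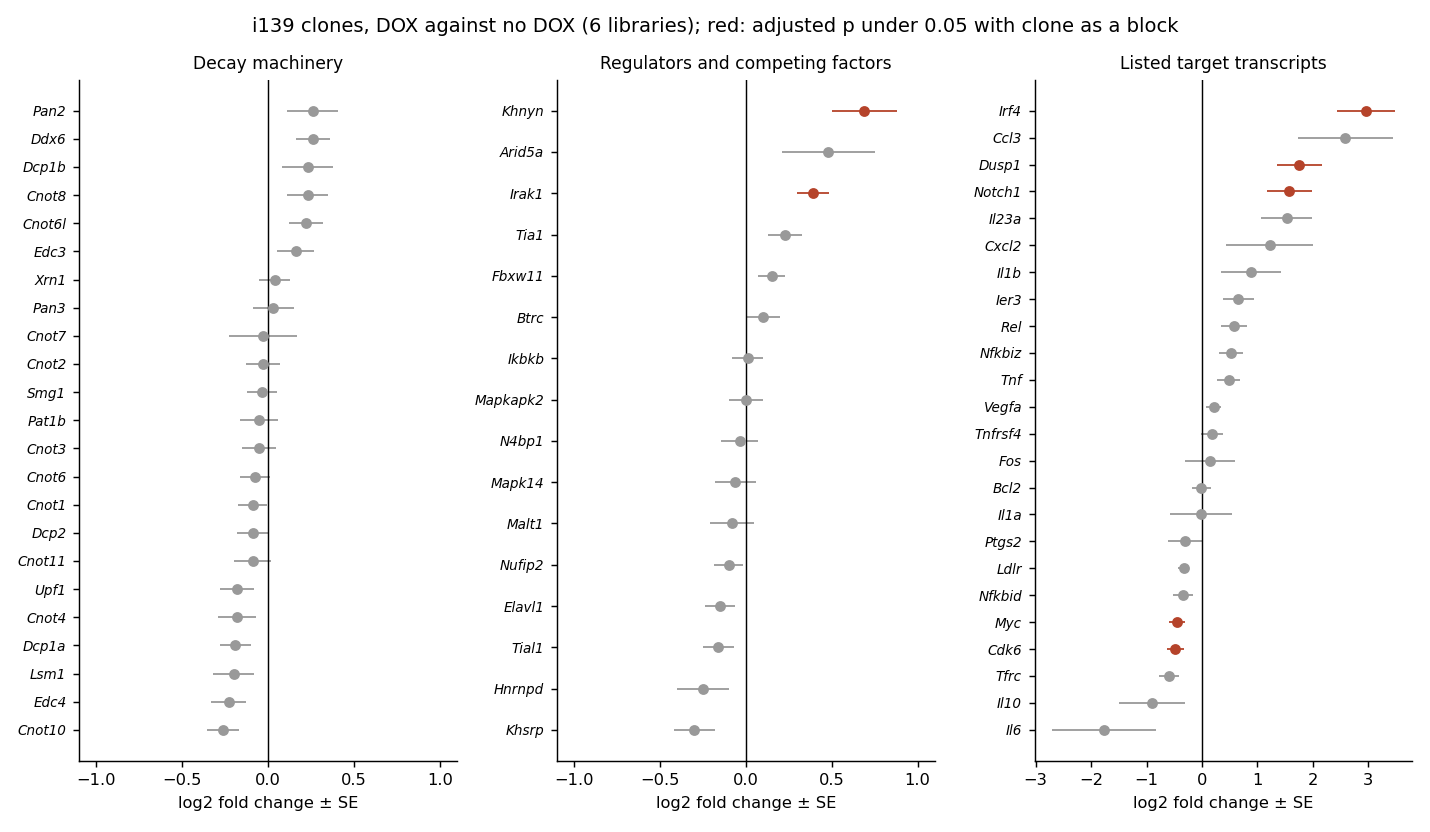
Log2 fold change with DOX in the 6 MLL-AF9-i139 libraries (points, edgeR without the block) with its standard error (bars) for the tested genes of the 3 lists, with red marking an adjusted p under 0.05 with the clone as a block. Decay machinery lies within 0.26 of 0 on either side, and the red points are Khnyn and Irak1 among the regulators and Irf4, Dusp1, Notch1, Myc and Cdk6 among the targets.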

How the data were processed

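Raw counts per gene of 10 libraries were analysed. Per the labels and the methods of the study, the authors depleted ribosomal RNA, mapped reads to GRCm38 with STAR 2.5.3e, counted reads with featureCounts 1.6.0 on GENCODE M15 and deposited the counts without normalization in 2 tables, which held 0 differing values for these libraries. A further 14 per-sample columns were not used. The authors' own tests used DESeq2 1.22.2.

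Genes with at least 10 counts in total were tested with edgeR 4.0.16 (R 4.3.3, quasi-likelihood, TMM, Benjamini-Hochberg over all genes, threshold 0.05). MLL-AF9-i139 with and without DOX was fitted on 6 libraries without a block, and MLL-AF9-ieGFP and the interaction on all 10. CPM were scaled by TMM factors, except summed marker levels and the limits for genes without counts, which used total counts. Differences within a clone used a prior count of 2. DESeq2 1.42.0, RLE factors, other filters, a clone block, a fit of all 10 libraries, a fit without 72 h treatment and each clone left out were the alternatives. Scripts were tested on simulated data.

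Clone numbers pair the libraries, since the same clone was sequenced with and without DOX. Deviations from the group means correlated across 20269 genes at 0.269 to 0.393 within a clone and at -0.297 to -0.0382 between clones. For MLL-AF9-ieGFP a replicate is a time point, both from 1 clone. Nothing in the labels says that the clones came from separate animals, so p-values measure the spread between these cultures only.

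The members and gene lists were chosen with earlier results of these data known. Named genes were the members, their family genes Zc3h12b and Zfp36l3, at most 5 rises and 5 falls per list called with or without the block, in 1 direction in 3 clones and with an average log2 CPM of at least 1, and the 3 genes most like a called member, 1 of which is not reported here. Of the 52550 genes, 52403 had a symbol, and Pat1b was found as Patl1. Positions came from GENCODE M21.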

Additional observations from a re-analysis of the deposited data

How the results depend on the processing

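Of the log2 fold changes of the 8 members under the alternatives, 62 of 72 in MLL-AF9-i139, 78 of 88 in MLL-AF9-ieGFP and 83 of 88 for the interaction kept their direction and side of the threshold. No call could be lost, since 0 members were called in the fits these were compared with. A call was gained by 6, 0 and 2 of the values. The sign changed in 4, 10 and 3, in each case at an adjusted p of at least 0.664. In the MLL-AF9-i139 comparison 12 genes were called, against 1556 with DESeq2, 562 without a filter, 6 with 10 counts in 3 libraries, 2381 with the clone block, 1234 in the fit of all 10 libraries, and 0 to 3981 when a clone was left out, the most without clone 3. Among the members the count of 0 became 1 (Zc3h12a) with DESeq2, without a filter, with the clone block and in the fit of all 10 libraries, and 0 to 2 without a clone. Of the regulators 2 were called with DESeq2, with the clone block and in the fit of all 10 libraries, and 0 to 5 without a clone. Of the targets 4 were called with DESeq2, 3 without a filter, 5 with the clone block, 4 in the fit of all 10 libraries, and 0 to 11 without a clone, and of the decay machinery 0 to 2 without a clone. In each list the highest count came without clone 3. The genes tested numbered 19223 with DESeq2 and with the clone block, 25840 without a filter and 20269 in the fit of all 10 libraries. Without clone 3 they numbered 18359, of which 3981 were called. The counts in the lists were not read as a result about the lists. In MLL-AF9-ieGFP cells 1 gene was called with DESeq2 and 1 without a filter, against 0. For the interaction 1 gene was called, against 83 with DESeq2, 71 without a filter, 0 with 10 counts in 3 libraries, 38 with the replicate block, 517 without the libraries treated for 72 h (1 of them a member, Zc3h12a), and 0 to 2011 (0 to 1 member) when a clone or time was left out. Leaving out clone 3 removes a clone and the 72 h treatment of MLL-AF9-i139 at once, and the cause of these differences was not tested.

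The values that crossed 0 are given here with their ranges. In MLL-AF9-i139, Rc3h1 was at 0.0083 without a filter, at 0.0013 with 10 counts in 3 libraries and at -0.053 to 0.062 without a clone, and Zc3h12d at -0.13 to 0.63 without a clone. In MLL-AF9-ieGFP, leaving out clone 3 together with the 72 h MLL-AF9-ieGFP libraries gave 0.0074 for Zc3h12a, 0.13 for Zc3h12c, 0.11 for Zfp36 and 0.038 for Zfp36l2. Leaving out a clone or time there gave -0.073 to 0.010 for Zc3h12a, -0.49 to 0.13 for Zc3h12c, -0.26 to 0.018 for Zc3h12d, -0.39 to 0.11 for Zfp36, -0.74 to 0.0047 for Zfp36l1 and -0.10 to 0.041 for Zfp36l2. For the interaction it gave -0.37 to 0.27 for Zc3h12c and -0.032 to 0.75 for Zc3h12d. A time left out of MLL-AF9-ieGFP leaves 1 library per arm, which is assumed to vary like the others. The blocked values that change a call are given with the results, and among the members no other call changed with the block. Zc3h12d and Zfp36l1 rest on 10 to 57 counts per library, and what size of change these counts could show was not tested.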
